A study of Homo sapiens with 6 samples.

Results

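The genes described here are 39 genes of the response to low oxygen and of glycolysis, read in PC3 prostate cancer cells that carried the G protein-coupled receptor kinase GRK3 and in PC3 cells that carried green fluorescent protein (GFP). They were taken by name, as the probes whose platform annotation gives one of the 39 symbols. A probe was found for 37 of the 39 genes, 57 probes in all out of 24526, and CA9 and SLC16A3 had no probe named here. At the detection filter (a detection p-value under 0.05 on at least 3 of the 6 arrays), 36 genes with 49 probes were tested, among 10586 named genes tested. EGLN3 did not pass this filter, with detection p-values from 0.0518 to 0.0777, so its level is at background on all 6 arrays.

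The series has 3 arrays of GFP cells, the control, and 3 of GRK3 cells, all Illumina HumanRef-8 v3 BeadChips of total RNA. PC3 is an established human prostate cancer cell line, and both groups were cultured in RPMI with serum and antibiotics. The sources used here do not give the promoter of the transgenes, whether a group is 1 clone or a pool, whether the 3 arrays of a group are separate cultures, or the oxygen supply of the cultures. The p-values thus rest on the spread among these 6 arrays, and part or all of it may be technical. Mean deposited signal per array lay between 1171 and 1387, and 13780 to 14363 probes per array were detected. All 7 markers listed for PC3 (KRT8, KRT18, KRT19, EPCAM, CDH1, CD44 and the mesenchymal gene VIM) were detected on all 6 arrays. VIM was lower on all GRK3 arrays than on any GFP array, at -0.66 ± 0.13 (SE), and did not pass (limma adjusted p = 0.0645). Of the androgen-dependent genes KLK3 and TMPRSS2 were detected on 0 arrays and KLK2 on 1. Of 6 markers of other cell types, PTPRC and CD3E were detected on 0 arrays, CD14 on 5, and COL1A1, PECAM1 and ACTA2 on 6. The mean log2 level of these 6 ran from 6.61 to 6.75 over the GFP arrays and from 6.60 to 6.73 over the GRK3 arrays. That mean hides a spread of levels, with PECAM1 at 9.59 in GFP and 9.80 in GRK3 cells, and ACTA2 at 7.96 and 7.98. PECAM1 was higher on all GRK3 arrays than on any GFP array, at 0.21 ± 0.10 (SE), and did not pass (limma adjusted p = 0.462). Groups did not overlap in 16.6% of all tested genes. The GRK3 probe itself was above background on 0 arrays and checks nothing about the labels. In bulk RNA, fewer cells that express a gene and less RNA per cell cannot be told apart.

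When oxygen is plentiful, prolyl hydroxylases of the EGLN family mark the alpha subunit of hypoxia-inducible factor (HIF) for destruction. When oxygen falls, the subunit persists, pairs with ARNT and switches on genes that bring glucose into the cell and run glycolysis to lactate. Other genes so induced limit the oxidation of pyruvate inside the mitochondria, remove mitochondria and cross-link collagen. Cancer cell lines express much of this programme at ordinary oxygen. HIF binds DNA at a short core whose letters are ACGTG or GCGTG.

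Promoter sequences are shown for 6 members, some with wide and some with narrow replicate spread. Whether the core bears on that spread, or on the order of arrays described below, was not tested. RefSeq promoters were found for 36 of the 39 genes, in 69 windows of the 250 bases before a start site. BNIP3L, SLC2A3 and NDRG1, the member with the widest spread, had no window. An ACGTG or GCGTG core on either strand occurred in at least 1 window of 31 of those 36 genes (86.1%), beside 47.4% of all 27305 genes with a window. Counted by window it was in 44 of 69 (63.8%), beside 43.2% of 35116 windows. The genes set beside the members were not limited to those tested on the arrays. Many members are on the list because they are known HIF targets, and a match describes the letters and not a binding site. Capitals mark the core, read on either strand, and in the ALDOC window a core on each strand overlaps in the letters CACGTG. DDIT4, ALDOC, P4HA1 and PFKL are 4 of the 5 members with the widest spread, and PGK1 and ANGPTL4 are among the 3 with the narrowest.
DDIT4 (GRCh38.p14, chr10:72273674-72273923, plus strand): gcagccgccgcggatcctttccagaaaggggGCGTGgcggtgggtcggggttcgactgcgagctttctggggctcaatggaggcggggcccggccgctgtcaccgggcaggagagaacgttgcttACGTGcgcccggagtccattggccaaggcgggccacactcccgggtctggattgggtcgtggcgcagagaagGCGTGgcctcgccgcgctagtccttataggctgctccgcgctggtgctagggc
ALDOC (GRCh38.p14, chr17:28576896-28577145, minus strand): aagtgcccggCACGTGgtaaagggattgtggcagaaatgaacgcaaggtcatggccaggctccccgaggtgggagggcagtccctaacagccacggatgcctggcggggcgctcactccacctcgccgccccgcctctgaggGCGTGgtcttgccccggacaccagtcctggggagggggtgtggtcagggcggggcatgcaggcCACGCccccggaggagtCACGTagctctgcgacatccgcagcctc
P4HA1 (GRCh38.p14, chr10:73096867-73097116, minus strand): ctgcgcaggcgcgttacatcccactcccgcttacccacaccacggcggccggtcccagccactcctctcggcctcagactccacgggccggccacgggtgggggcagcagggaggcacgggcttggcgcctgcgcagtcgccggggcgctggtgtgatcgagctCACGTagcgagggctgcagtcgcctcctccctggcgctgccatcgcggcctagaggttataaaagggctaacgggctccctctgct
PFKL (GRCh38.p14, chr21:44299803-44300052, plus strand): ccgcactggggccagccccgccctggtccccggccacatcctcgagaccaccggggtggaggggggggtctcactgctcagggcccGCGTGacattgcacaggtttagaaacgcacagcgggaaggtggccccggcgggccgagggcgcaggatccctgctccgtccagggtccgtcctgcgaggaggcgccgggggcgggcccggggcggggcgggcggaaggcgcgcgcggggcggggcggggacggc
PGK1 (GRCh38.p14, chrX:78103998-78104247, plus strand): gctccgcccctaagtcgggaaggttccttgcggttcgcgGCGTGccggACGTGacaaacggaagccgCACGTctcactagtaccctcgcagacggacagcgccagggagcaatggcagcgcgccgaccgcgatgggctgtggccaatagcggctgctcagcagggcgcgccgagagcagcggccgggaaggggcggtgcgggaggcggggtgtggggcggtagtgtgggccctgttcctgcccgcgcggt
ANGPTL4 (GRCh38.p14, chr19:8363905-8364154, plus strand): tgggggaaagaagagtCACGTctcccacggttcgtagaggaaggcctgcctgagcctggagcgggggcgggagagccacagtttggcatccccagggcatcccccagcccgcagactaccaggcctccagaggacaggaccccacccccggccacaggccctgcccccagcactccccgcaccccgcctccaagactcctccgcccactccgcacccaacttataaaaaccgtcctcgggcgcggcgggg

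None of the 49 probes of these genes passed the comparison of GRK3 with GFP cells. The test was limma's two-sided moderated test over 14130 probes with Benjamini-Hochberg adjustment, where a probe passes at an adjusted p under 0.05, and 81 probes passed in all (0.573%). Taken by gene, with the probe of highest mean signal standing for its gene, 0 of 36 members passed beside 0.652% of all tested genes. At an unadjusted p under 0.05 stood 1 member, BNIP3L, beside 11.3% of all tested genes. The limma adjusted p-values of the 36 ran from 0.186 to 0.998. The differences, GRK3 minus GFP on the log2 scale, ran from -0.22 to 0.42, with 18 above and 18 below 0. Their median was 0.00, as was that over all tested genes (-0.00). In 23 of the 36 members the difference was under 0.1 in size, and in 32 it was under 0.2. The 95% interval of limma lay inside -0.5 to 0.5 for 30 members. It reached past 0.5 in size for the other 6, which were NDRG1, BNIP3, BNIP3L, MXI1, P4HA1 and ALDOC.

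**Figure D1:**
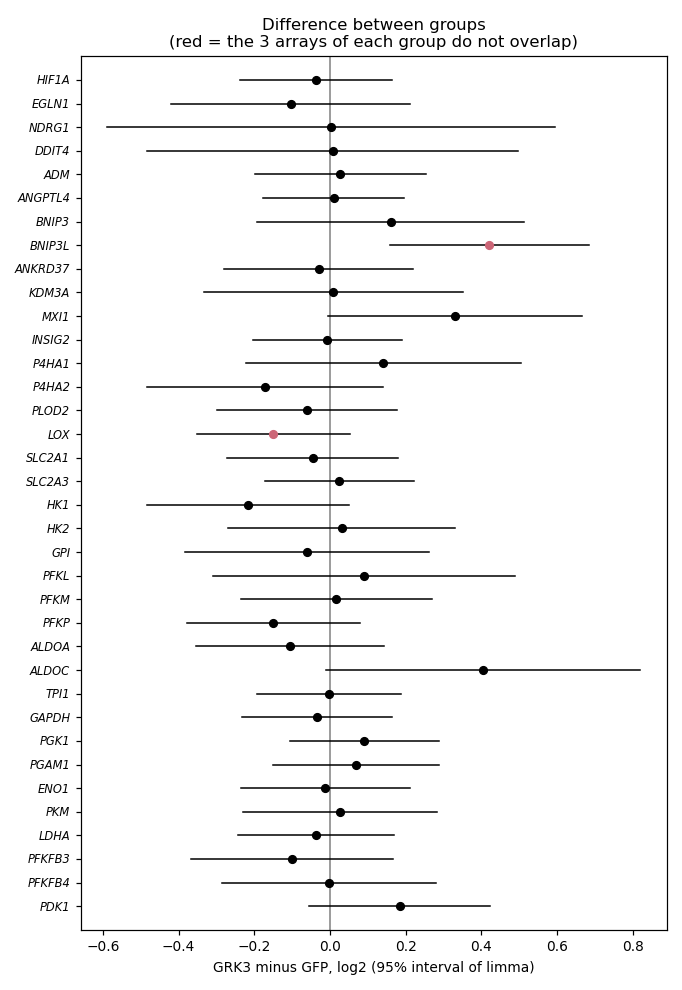
Difference between GRK3 and GFP cells in log2 signal (x axis) for the 36 tested genes (y axis), with the 95% interval of limma, n = 3 arrays per group. The interval of BNIP3L is the only one of the 36 that leaves out 0, and in red are BNIP3L and LOX, whose arrays do not overlap between the groups.

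In most members, replicate arrays of a group differed by more than the groups did. The pooled within-group SD had a median of 0.15 over the 36 members, beside 0.12 over all tested genes, while the median size of the difference was 0.05, beside 0.09. The difference was larger than the pooled SD in 8 of 36 members (22.2%), beside 38.3% of all tested genes. In 30 of 36 (83.3%) it was smaller than the range of the 3 GFP arrays and smaller than that of the 3 GRK3 arrays, beside 69.4% of all tested genes. In 1 member (2.78%), BNIP3L, it was larger than both ranges, beside 9.73% of all tested genes. The groups did not overlap in 2 members, beside 16.6% of all tested genes. BNIP3L was the 1 member wholly higher in GRK3 cells and LOX the 1 wholly lower, beside 8.62% and 7.99% of all tested genes. Without GRK3 replicate 1 the count was 10 members, 27.8% of the 36 beside 30.7% of all tested genes. Of the 10, 9 were higher in GRK3 cells, and the share of all tested genes in that direction was not counted. GRK3 replicate 1 was the lowest GRK3 array in 33 of the 36, so leaving it out favours that direction.

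**Figure D2:**
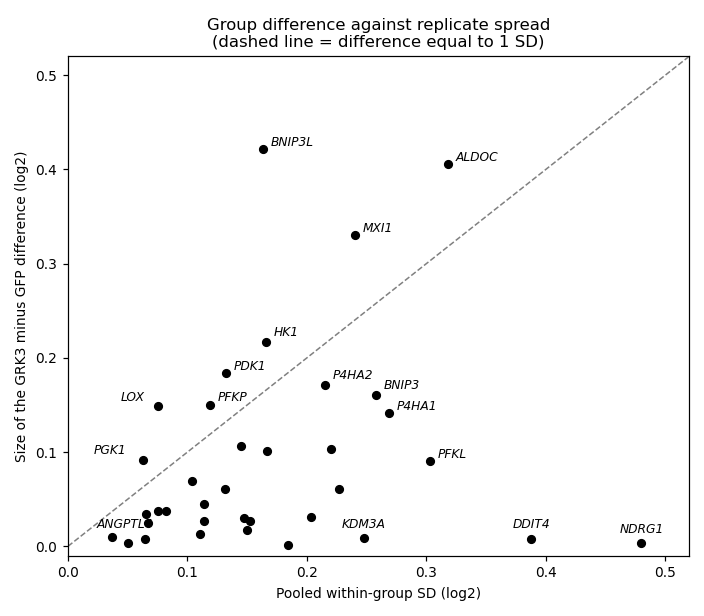
Size of the GRK3 minus GFP difference (y axis, log2) against the pooled within-group SD (x axis, log2) for the 36 tested genes, 1 point each. NDRG1 and DDIT4 lie far right at the foot of the plot (SD 0.48 and 0.39, differences 0.00 and 0.01), and 8 points lie above the dashed line where the difference equals 1 SD.

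The members moved together across the arrays inside each group, along an axis of arrays also seen over all tested genes. GRK3 replicate 1 was the lowest array of its group in 33 of 36 members (91.7%), beside 38.6% of all tested genes. Among the GFP arrays, replicate 3 was the lowest in 23 members (63.9%, beside 32.6%) and replicate 1 the highest in 25 (69.4%, beside 38.3%). In 22 members the lowest arrays were GFP replicate 3 and GRK3 replicate 1 together, and in 20 these were the lowest 2 of all 6 arrays. A high joint count follows from the single counts of 33 and 23, and neither joint count was made over all tested genes. The first principal component of the deviations from the group means held 82.8% of their variation over the 36 members, beside 49.9% over all tested genes. Genes were not scaled for it, so those with a wide spread weigh most. Array scores on it were similar in the 2 sets. For members and all tested genes they were 0.65 and 0.63 on GRK3 replicate 1, and 0.44 and 0.44 on GFP replicate 3. On GFP replicate 1 they were -0.41 and -0.43, and on GRK3 replicate 3 -0.36 and -0.43. The axis is thus not particular to the members. GRK3 replicate 1 also stood furthest out over all tested genes, with a root mean square deviation of 0.15, beside 0.23 over the members. The count of 33 for GRK3 replicate 1 was 25 where arrays were scaled to 1 median in place of quantiles. Mean deposited signal, in replicate order, was 1215, 1320 and 1387 in GFP cells and 1339, 1362 and 1171 in GRK3 cells. GRK3 replicate 1 had the most detected probes, 14363. The part of signal and detection in the shared order was not tested.

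**Figure D3:**
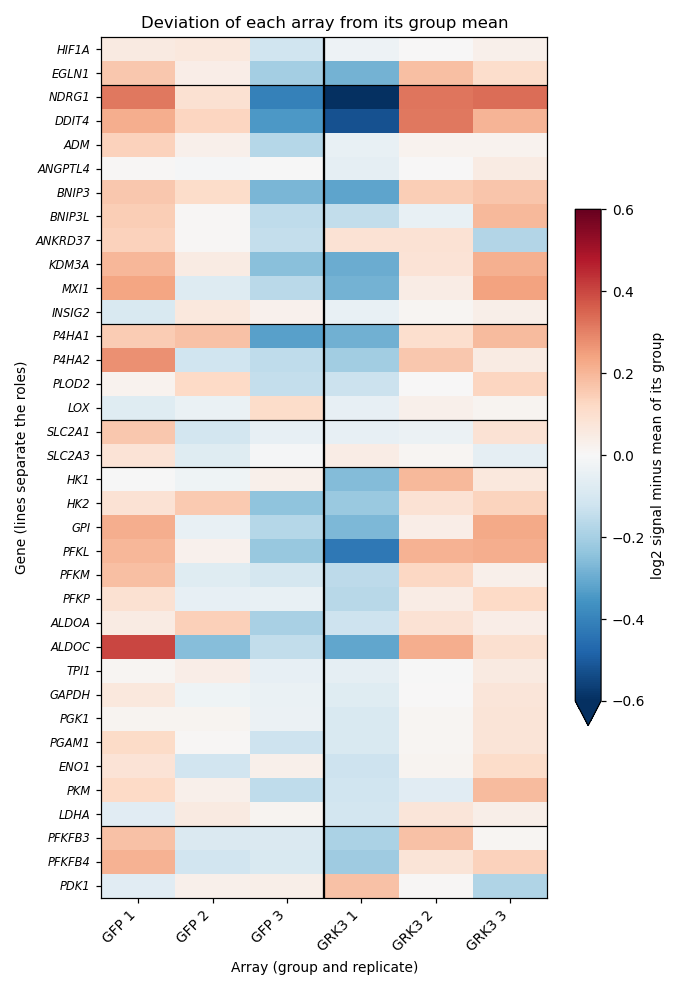
Deviation of each array from the mean of its own group (colour, log2) for the 36 tested genes (rows, by role) on the 6 arrays (columns). The columns GFP 3 and GRK3 1 are mostly blue and GFP 1 and GRK3 3 mostly red, while ANKRD37, SLC2A3 and PDK1 are red on GRK3 1.

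Neither HIF1A nor EGLN1, the tested genes of oxygen sensing, passed the test. HIF1A, the regulated HIF alpha subunit, read 12.28, 12.30 and 12.11 in GFP cells and 12.16, 12.20 and 12.22 in GRK3 cells, in the order of replicates 1, 2 and 3 and on the log2 scale, as for all levels here. The GRK3 arrays lay within 0.06 of each other and inside the GFP range, and the difference was -0.04 ± 0.09 (SE; limma adjusted p = 0.926). A second HIF1A probe differed by -0.18 (limma adjusted p = 0.643), with a wider range among the GRK3 arrays, from 11.46 to 11.91. EGLN1, the hydroxylase that marks HIF for destruction, differed by -0.10 ± 0.14 (SE). RNA levels say nothing of HIF protein, which is controlled after translation.

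Among the HIF-induced regulators, NDRG1 and DDIT4 had the widest replicate spread of all members and group differences next to 0. NDRG1, a stress-response gene widely used as a marker of hypoxia, read 12.41, 12.18 and 11.69 in GFP cells and 11.44, 12.42 and 12.43 in GRK3 cells. GFP replicate 3 and GRK3 replicate 1 were low, and the other 4 arrays lay close together. The group means were 12.09 ± 0.37 and 12.10 ± 0.57 (SD, n = 3 each), with a difference of 0.00 ± 0.26 (SE; limma adjusted p = 0.998). Of all tested genes, 99.8% had a pooled SD no larger than that of NDRG1. DDIT4, which encodes an inhibitor of mTOR signalling, read 12.12, 12.03 and 11.55 in GFP cells and 11.38, 12.22 and 12.11 in GRK3 cells. The same pair of arrays was low, and the difference was 0.01 ± 0.22 (SE; limma adjusted p = 0.994). Without GRK3 replicate 1 the difference was 0.33 for NDRG1 and 0.27 for DDIT4 (limma adjusted p = 0.489 and 0.529). Leaving out GFP replicate 3 gave -0.20 and -0.17, so 1 array decides the sign.

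The mitophagy receptor genes BNIP3 and BNIP3L, whose proteins tag mitochondria for removal, were compared next. BNIP3L read 9.42, 9.28 and 9.12 in GFP cells and 9.55, 9.65 and 9.89 in GRK3 cells. Every GRK3 array lay above every GFP array, and the gap between the groups, from 9.42 to 9.55, was narrower than the range inside either group. The means were 9.28 ± 0.15 and 9.70 ± 0.17 (SD, n = 3 each), a difference of 0.42 ± 0.12 (SE), the largest of the 36 members, with a 95% interval from 0.16 to 0.69. BNIP3L did not pass (limma adjusted p = 0.186), and over the alternatives its limma adjusted p ran from 0.0772 to 0.496 with differences from 0.32 to 0.49. BNIP3 read 13.72, 13.67 and 13.28 in GFP cells and 13.40, 13.87 and 13.89 in GRK3 cells. Its groups overlapped, with the same 2 low arrays as NDRG1, and the difference was 0.16 ± 0.16 (SE; limma adjusted p = 0.780).

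Of the other HIF-induced regulators, MXI1, a partner of MAX that opposes MYC, read 7.52, 7.20 and 7.12 in GFP cells and 7.32, 7.65 and 7.85 in GRK3 cells. GFP replicate 1 lay above GRK3 replicate 1, so the groups overlapped, and the difference of 0.33 ± 0.15 (SE) did not pass (limma adjusted p = 0.442). A dimmer MXI1 probe, detected on 3 of the 6 arrays, differed by 0.08. ANGPTL4, which encodes an inhibitor of lipoprotein lipase, had the narrowest spread of the members. It read 6.60, 6.59 and 6.59 in GFP cells and 6.55, 6.61 and 6.65 in GRK3 cells, with a difference of 0.01 ± 0.08 (SE; limma adjusted p = 0.981). These levels are near background, where an offset of 16 added before the logarithm narrows both spread and difference, and a dimmer ANGPTL4 probe had a GFP range from 5.80 to 6.45. ADM (the vasodilator adrenomedullin), ANKRD37 (an ankyrin repeat protein), KDM3A (a histone demethylase) and INSIG2 (a brake on sterol synthesis) differed by 0.03, -0.03, 0.01 and -0.01. Their limma adjusted p-values ran from 0.958 to 0.993. KDM3A had the spread of the NDRG1 kind, from 9.72 to 10.16 in GFP cells and from 9.68 to 10.19 in GRK3 cells. ANKRD37 went the other way inside the GRK3 group, where replicate 3 was its lowest array.

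**Figure D4:**
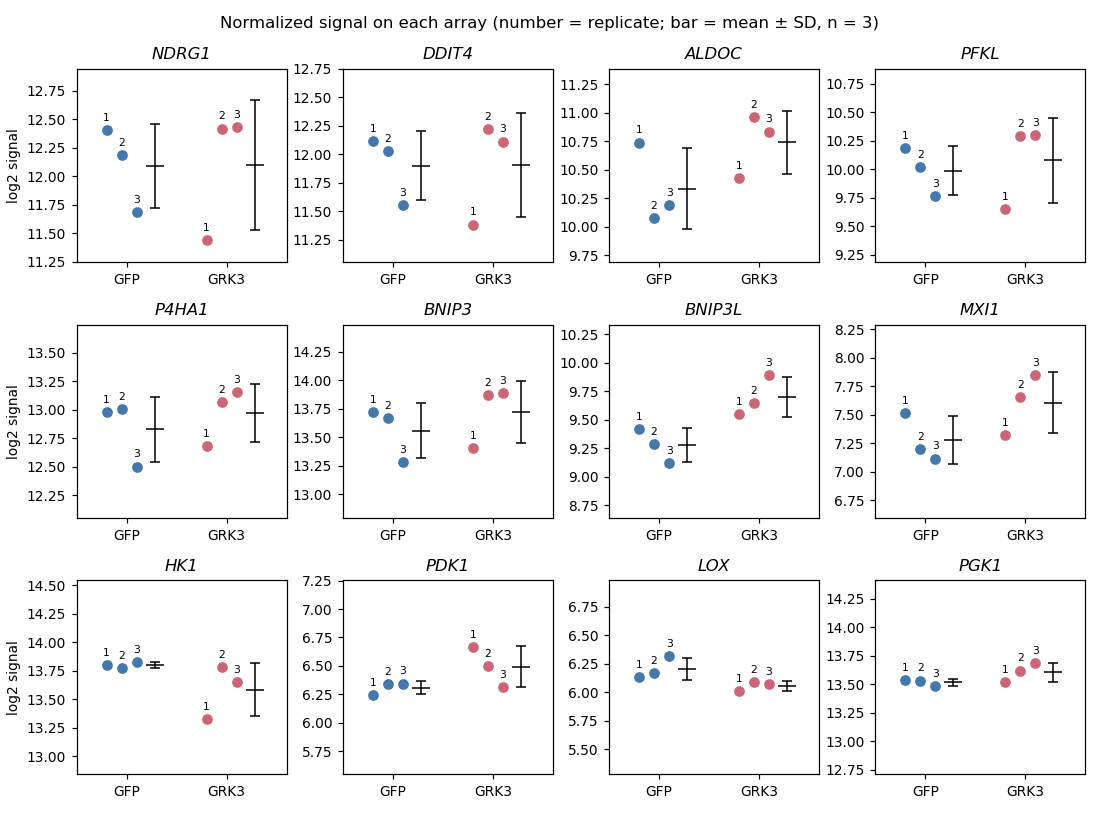
Normalized log2 signal (y axis) of 12 members on each array, GFP in blue and GRK3 in red, with the replicate number at each point and the mean ± SD of the 3 arrays as a bar; every panel spans the same height. NDRG1, DDIT4, BNIP3 and P4HA1 are low on GFP 3 and GRK3 1, BNIP3L and LOX have groups that do not overlap, and PDK1 runs the other way inside the GRK3 group.

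Genes of collagen modification, LOX included, had GRK3 replicate 1 as their lowest GRK3 array. Among the GFP arrays, replicate 3 was the lowest for the prolyl hydroxylase subunits and the lysyl hydroxylase, and the highest for LOX. P4HA1, a catalytic subunit of collagen prolyl hydroxylase, read 12.98, 13.00 and 12.50 in GFP cells and 12.68, 13.07 and 13.16 in GRK3 cells. GFP replicate 3 and GRK3 replicate 1 were again the low arrays, and the difference was 0.14 ± 0.16 (SE; limma adjusted p = 0.819). A dimmer P4HA1 probe had groups that did not overlap, at 0.38 ± 0.16 (SE), and did not pass (limma adjusted p = 0.404). The related subunit gene P4HA2 read 10.64, 10.24 and 10.21 in GFP cells and 9.98, 10.35 and 10.24 in GRK3 cells. GFP replicate 1 stood above the rest, and the difference of -0.17 ± 0.14 (SE) did not pass (limma adjusted p = 0.717). A dimmer P4HA2 probe differed by -0.31 ± 0.12 (SE; limma adjusted p = 0.360). PLOD2, a lysyl hydroxylase, differed by -0.06 at its brightest probe, and by -0.20 and 0.04 at the others. LOX, which encodes the enzyme that cross-links collagen, read 6.14, 6.17 and 6.32 in GFP cells and 6.01, 6.09 and 6.08 in GRK3 cells. All 3 GRK3 values lay below the GFP values, at levels near background, and the difference of -0.15 ± 0.09 (SE) did not pass (limma adjusted p = 0.593). The LOX groups overlapped on the authors' value table.

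The glucose transporters did not pass the test. SLC2A1, the main glucose transporter of most tumour cells, read 12.42, 12.15 and 12.22 in GFP cells and 12.17, 12.18 and 12.31 in GRK3 cells. Its GRK3 values lay inside the GFP range, with a difference of -0.05 ± 0.10 (SE; limma adjusted p = 0.917). SLC2A3, a high-affinity transporter, differed by 0.03 ± 0.09 (SE; limma adjusted p = 0.956), and the highest GRK3 array for it was replicate 1.

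The glycolytic enzymes were tested in 15 of 15 members, with differences from -0.22 to 0.41 around a median of -0.00. Of the 15, 0 passed, beside 0.652% of all tested genes, and 0 had groups that did not overlap, beside 16.6%. GRK3 replicate 1 was the lowest GRK3 array in all 15. Spread differed widely among them, from a pooled SD of 0.05 in TPI1 to 0.32 in ALDOC.

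At the entry of the pathway, HK1 and HK2 encode the hexokinases that trap glucose as its phosphate. HK1 read 13.79, 13.77 and 13.83 in GFP cells and 13.32, 13.78 and 13.65 in GRK3 cells. The GFP arrays lay within 0.05 of each other while GRK3 replicate 1 stood apart, and the difference was -0.22 ± 0.12 (SE; limma adjusted p = 0.544), or -0.09 without that array. HK2 read 11.76, 11.83 and 11.43 in GFP cells and 11.48, 11.79 and 11.84 in GRK3 cells. Its lowest arrays were those of NDRG1, with a difference of 0.03 ± 0.13 (SE; limma adjusted p = 0.963). GPI, which isomerizes glucose phosphate, differed by -0.06.

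PFKL, the liver-type subunit of phosphofructokinase, read 10.18, 10.02 and 9.76 in GFP cells and 9.65, 10.29 and 10.30 in GRK3 cells. Its 2 lowest arrays were those of NDRG1, and the difference was 0.09 ± 0.18 (SE; limma adjusted p = 0.906), or 0.31 without GRK3 replicate 1. The muscle-type subunit PFKM and the platelet-type subunit PFKP differed by 0.02 and -0.15, with pooled SDs of 0.15 and 0.12. ALDOC, the brain-type aldolase, read 10.74, 10.08 and 10.19 in GFP cells and 10.43, 10.96 and 10.84 in GRK3 cells. GFP replicate 1 lay above GRK3 replicate 1 and the groups overlapped. The difference of 0.41 ± 0.19 (SE) came second in size among the members and did not pass (limma adjusted p = 0.450). Over the alternatives the ALDOC difference ran from 0.28 to 0.61, and its limma adjusted p from 0.142 to 0.768. ALDOA, the aldolase of most tissues, differed by -0.11 at its brightest probe, and by -0.02 and 0.11 at its other tested probes.

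Of the later steps of the pathway, from triose phosphates to lactate, TPI1, GAPDH, PGK1 and LDHA had pooled SDs from 0.05 to 0.08, below the median of the members, and PKM had 0.15. TPI1, triose phosphate isomerase, read 14.54, 14.57 and 14.48 in GFP cells and 14.48, 14.53 and 14.59 in GRK3 cells. All 6 arrays lay within 0.11 of each other, and the difference was -0.00 ± 0.09 (SE; limma adjusted p = 0.994). GAPDH, often used as a reference gene, read 15.20, 15.11 and 15.09 in GFP cells and 15.02, 15.10 and 15.17 in GRK3 cells. Its groups overlapped with a difference of -0.03 ± 0.09 (SE; limma adjusted p = 0.931), which was 0.03 with median scaling, and the dimmer GAPDH probe differed by 0.05. PGK1, which makes the first ATP of the pathway, read 13.54, 13.53 and 13.48 in GFP cells and 13.52, 13.62 and 13.68 in GRK3 cells. GRK3 replicates 2 and 3 lay above all GFP arrays and replicate 1 did not, with a difference of 0.09 ± 0.09 (SE; limma adjusted p = 0.774). With median scaling and on the authors' value table, all 3 GRK3 arrays lay above the GFP arrays for PGK1. LDHA, which reduces pyruvate to lactate, read 15.32, 15.45 and 15.41 in GFP cells and 15.24, 15.43 and 15.39 in GRK3 cells. The groups overlapped, with a difference of -0.04 ± 0.09 (SE; limma adjusted p = 0.926). The mutase PGAM1, the enolase ENO1 and the pyruvate kinase PKM differed by 0.07, -0.01 and 0.03. PKM had other probes at -0.21 and -0.18 (limma adjusted p = 0.609 and 0.673). The highest deposited intensity of any member was 45443, on arrays whose brightest probes lay between 64183 and 66514, and whether the brightest genes were compressed was not tested.

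Of the enzymes that set the direction of flux, PFKFB3 makes the activator of phosphofructokinase. PFKFB3 read 11.46, 11.20 and 11.20 in GFP cells and 11.00, 11.36 and 11.20 in GRK3 cells. The highest array was GFP replicate 1 and the lowest GRK3 replicate 1, with a difference of -0.10 ± 0.12 (SE; limma adjusted p = 0.825). Its relative PFKFB4 differed by -0.00 ± 0.13 (SE). PDK1, the kinase that holds pyruvate dehydrogenase inactive, read 6.24, 6.34 and 6.35 in GFP cells and 6.67, 6.50 and 6.31 in GRK3 cells. GRK3 replicate 1 was its highest array, as it was the highest GRK3 array for ANKRD37 and SLC2A3, and the difference of 0.18 ± 0.11 (SE) did not pass (limma adjusted p = 0.568). These PDK1 levels were also near background.

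Genes of the same pathways outside the 39 gave the same count of calls, 0, beside 0.652% of all tested genes. Of 35 other genes of the hypoxia pathway, 34 had a probe and 30 were tested, and 0 passed with limma. The groups did not overlap in 4 of the 30, beside 16.6% of all tested genes. The largest difference was in PDK3, another kinase of pyruvate dehydrogenase, at 0.36 ± 0.11 (SE; limma adjusted p = 0.237). HMOX1, which encodes a heme oxygenase, followed at -0.27 ± 0.10 (SE; limma adjusted p = 0.360). Of 32 other genes of glycolysis and pyruvate use, 29 had a probe and 18 were tested, and 0 passed. The groups did not overlap in 1 of the 18, beside the same 16.6%. The largest differences there were in PDK4, a further kinase of this family, at 0.37 ± 0.24 (SE), and PGAM4, a retrotransposed copy of PGAM1, at 0.36 ± 0.14 (SE). Their limma adjusted p-values were 0.627 and 0.346, and whether the PGAM4 probe also reads PGAM1 was not tested. At an unadjusted p under 0.05 stood 2 genes of each list, beside 11.3% of all tested genes.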

How the data were processed

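Total RNA of 6 samples was read on 1-colour Illumina arrays. The deposited table gives an average bead intensity per probe and array, not normalized per the file headers, and a detection p-value that the deposited table ranks against negative control probes. The authors' value table holds each intensity column times 1 factor per array (0.931 to 1.10) to a common mean of 1291.94, with column medians from 131.6 to 140.7. It was used as an alternative. The sources used here name no software for these tables.

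Background correction, quantile normalization and log2 were done with neqc (offset 16; limma 3.58.1, R 4.3.3), then lmFit and eBayes on 14130 probes. Probes were named from the platform annotation (21834 with 1 symbol, 2692 with none, 0 with several). A gene takes its probe with the highest mean. The number of arrays limits the precision. Promoter windows are from RefSeq (GRCh38.p14).

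Members and lists were chosen with earlier results of these data known. Values on all 6 arrays are given for the members with the 6 largest differences, the 5 largest and 3 smallest spreads, the 3 largest ratios of difference to spread, and a fixed set (HIF1A, NDRG1, CA9, DDIT4, BNIP3, ANGPTL4, LOX, SLC2A1, HK2, PFKFB3, GAPDH, LDHA and PDK1). Of other lists, the 2 largest differences are named where none passed. Over all tested probes, deviations of same-numbered arrays from their group means had correlations from -0.41 to 0.18, beside -0.21 to 0.51 for other pairs. Deviations inside a group sum to 0, so these values cannot say whether same-numbered arrays were handled together. The main fit treats the arrays as unpaired.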

Additional observations from a re-analysis of the deposited data

How the results depend on the processing

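The comparison was repeated under 16 alternatives: log2 intensity with no background correction, neqc with an offset of 50, scaling to 1 median, the value table of the authors, detection on all 6 arrays or no filter, a variance trend with intensity, weights per array, a block for the replicate number, all probes of a gene averaged, and 1 array left out at a time. The count of member probes that passed limma was 0 in each alternative that counts probes, the fit with the replicate number as a block included, while the count over all probes ran from 11 with that block and 23 without GRK3 replicate 2 or with no detection filter to 183 without GRK3 replicate 1 and 239 with array weights. The lowest limma adjusted p of any member gene was 0.0772. Of 576 differences of single genes under an alternative, 573 moved by less than their pooled within-group SD. The 3 others were ANGPTL4 (-0.03 with the mean of its probes), GAPDH (0.03) and TPI1 (0.07), both with median scaling. This count tests little. The detection filters, the variance trend and the replicate block left the differences as they were, and leaving out 1 of 3 arrays can hardly move one by that SD. NDRG1, at 0.00 with all arrays, counted as not moved at 0.33 without GRK3 replicate 1. Leaving out 1 array moved the median difference of the members between -0.05 and 0.06 and their median pooled SD between 0.13 and 0.17. The count of members with groups that do not overlap, 2 with all arrays (BNIP3L and LOX), was 3 with median scaling, which added PGK1, and 2 on the authors' value table, with PGK1 in place of LOX. It ran from 3 to 10 with 1 array left out. It was 10 without GRK3 replicate 1, beside 30.7% of all tested genes, and 4 without GFP replicate 1, GFP replicate 3 or GRK3 replicate 3, beside 30.3%, 24.9% and 23.1%. Fewer arrays make such separation easier. The count of members lowest on GFP replicate 3 ran from 23 to 25 over the alternatives, and that on GRK3 replicate 1 from 25 to 33. Averaging a gene's probes gives no count of probes.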

Other observations

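The kinases and a phosphatase of pyruvate dehydrogenase were looked at together after their values were seen. They set how active this mitochondrial enzyme is in using pyruvate. PDK2 differed by 0.15 ± 0.12 (SE; limma adjusted p = 0.713), and its groups overlapped, as did those of PDK1 and PDK4. PDK1, PDK2, PDK3 and PDK4 all had differences above 0, as did 5218 of 10586 tested genes, and no kinase passed. The PDK1 and PDK4 levels were near background. PDK3 read 9.78, 9.56 and 9.48 in GFP cells and 9.80, 10.04 and 10.04 in GRK3 cells. The PDK3 groups did not overlap, with GRK3 cells wholly higher, as in 8.62% of all tested genes. PDK4 read 6.19, 6.07 and 6.09 in GFP cells and 5.82, 6.97 and 6.67 in GRK3 cells, with GRK3 replicate 1 below all GFP arrays. PDP1, a phosphatase that switches the enzyme on, read 10.30, 10.36 and 10.40 in GFP cells and 9.95, 9.90 and 10.15 in GRK3 cells. All 3 GRK3 values of PDP1 lay below the GFP values, as in 7.99% of all tested genes. Its difference of -0.35 ± 0.10 (SE) did not pass (limma adjusted p = 0.185).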
